A study of Homo sapiens with 47 samples.

Results

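The genes described here are 9 noncoding RNA genes transcribed by RNA polymerase III (Pol III): RN7SK, RN7SL1, RN7SL2, RMRP, RPPH1, VTRNA1-1, BCYRN1, RNY1 and RNY3. They were chosen by symbol, as a contrast to the small nuclear RNA (snRNA) genes of Pol II, among 58395 genes counted by RNA-seq of total RNA depleted of ribosomal RNA. The study examined HEK293T cells, a line derived from human embryonic kidney, in which the elongation factor EAF1 was altered where it binds MED26, a subunit of Mediator. Wild-type HEK293T cells were compared with a CRISPR knock-in HEK293T line in which both EAF1 alleles encode alanines in place of the MED26-binding residues. There were 3 libraries of each. The EAF1-mutant line is a single clone, so what the mutation does and what is particular to the clone cannot be told apart. The study calls its replicates biological, without saying how the RNA-seq cultures were kept apart, so p-values measure the spread between these libraries. Total counts were 59137210, 52541541 and 55637032 in the wild-type libraries and 57198018, 53369621 and 66611451 in those of the EAF1-mutant line.

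Pol III makes short, untranslated RNAs, many of them used in every cell, and ends its transcripts at runs of thymidines, without a cleavage and polyadenylation step. Some of its genes, such as RN7SK, RMRP and RPPH1, have promoters that lie upstream of the transcribed sequence and bind the SNAPc complex, which Pol II snRNA genes use as well. Others, such as the vault and BC200 RNA genes, carry promoter boxes inside the transcribed sequence.

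The 3′ ends of the genes are shown because the end of the transcript is where Pol III and Pol II differ. Each window holds the last 10 bases of the annotated gene and the 20 bases that follow it, 5′ to 3′ on the strand of the gene, read from GRCh38 at the ends annotated in GENCODE v44. Capitals mark the first run of at least 4 thymidines.
RN7SK, chr6:52995939-52995968, plus strand: ctgcctttcTTTTgacccattacccatcta
RN7SL1, chr14:49586869-49586898, plus strand: ccccgtctcTTTTgaacaataaatacgtta
RN7SL2, chr14:49862530-49862559, minus strand: cccgtctcTTTTgcccccctccctcattaa
RMRP, chr9:35657734-35657763, minus strand: tcagcgcggctgTTTTTTgttcccgagacc
RPPH1, chr14:20343055-20343084, minus strand: ctcctccgcccaTTTTTggaaaaaaaaaaa
VTRNA1-1, chr5:140711364-140711393, plus strand: cagtccTTTTacctctctgggcggttcgag
BCYRN1, chr2:47335505-47335534, plus strand: cccccccTTTTcatattcttgcctggaaga
RNY1, chr7:148987116-148987145, minus strand: ctagtcTTTTacgagagtttccactctcct
RNY3, chr7:148983847-148983876, plus strand: ctagccTTTTgctgtggttttggggtggga
A run of at least 4 thymidines stood in the windows of 9 of the 9 genes. The same run stood in 27.4% of the windows of 27668 tested genes of the table that have an annotated position, in 31.7% of those of protein-coding genes, and in 17 of 34 windows of tested Pol II snRNA genes. The longest first runs, of 6 and 5 thymidines, were those of RMRP and RPPH1, and the other genes had runs of 4.

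Reads of these RNAs can match more than 1 place in the genome, which decides how each count can be read. In GENCODE v44, RN7SL1 and RN7SL2, the genes of the signal recognition particle RNA, are 299 and 300 bases long and differed by 4 substitutions and 1 gap, an identity of 98.3%. Of the 100-base windows of RN7SL1, 74.5% had an identical match elsewhere in GRCh38, and of those of RN7SL2, 82.1%. For RN7SK this share was 52% and for BCYRN1 97%. RMRP and RPPH1 had no 50-base window with an identical match elsewhere, and neither did VTRNA1-1. The sources used here do not state how reads with several matches were counted, so the counts of RN7SK, BCYRN1 and the RN7SL genes may be shared with copies, while those of RMRP and RPPH1 have no identical stretch of 50 bases elsewhere.

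RNY1 and RNY3, the Y RNA genes of the group, shared 71.7% of their bases in a pairwise alignment. Of the 50-base windows of RNY1 25% matched elsewhere in the genome, and of those of RNY3 100%.

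Some records of the table repeat a gene of the group. The record 7SK overlaps RN7SK on the same strand and held identical counts in all 6 libraries, and records that GENCODE v44 does not list held counts identical to those of RN7SL1 and RMRP. A long noncoding RNA annotated across RPPH1 on the same strand held 376335 counts where RPPH1 held 376265, in wild-type replicate 1. Reads were thus counted for each of the records known to overlap, while the unlisted records have no position here. No second record of either kind entered the lists or sums below. They stayed among the tested genes and in the library totals, with a mean of 4.28% of all counts in wild-type and 4.66% in EAF1-mutant libraries. A long noncoding RNA gene with an exon over RN7SL2 on the same strand, described below, did not hold the counts of RN7SL2. None of the 9 genes overlapped an exon annotated on the opposite strand.

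Levels between genes were compared in CPM, counts scaled to the library size as adjusted by edgeR's TMM factors, per kilobase of RNA. In wild-type cells the order ran from RN7SL2 (79702 ± 4896 CPM per kb, SD, n = 3) and RN7SL1 (73445 ± 6437), whose ranges overlapped, to RN7SK (42300.3 ± 1131), RPPH1 (18486 ± 1552) and RMRP (9866 ± 1561). BCYRN1 followed at 176 ± 12.3 CPM per kb, then RNY1 at 10.1 ± 1.33, VTRNA1-1 at 1.69 ± 0.241 and RNY3 at 0.921 ± 0.221. No other neighbors in this order overlapped. In EAF1-mutant cells RN7SL2 (64307 ± 4796 CPM per kb), RN7SK (61844 ± 931) and RN7SL1 (59944 ± 995) lay in overlapping ranges, and RPPH1 (11835 ± 287) exceeded RMRP (10059 ± 916) by 1.18 times, against 1.87 times in wild-type cells. The 3 genes with the lowest levels were also the 3 shortest, with 99 to 113 bases. Whether their length affected their recovery in the libraries was not tested.

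**Figure D1:**
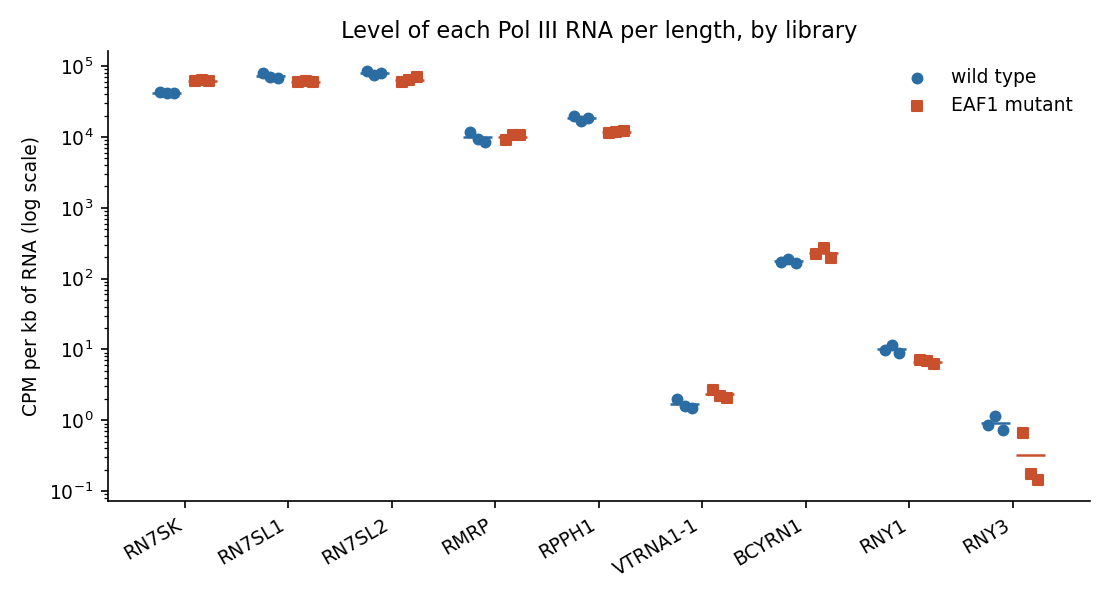
Level of each Pol III RNA in each library, as CPM per kb of RNA on a log axis. Points are libraries (3 wild-type circles, 3 EAF1-mutant squares) and lines are group means; the RN7SL genes and RN7SK lie above the others in every library, while VTRNA1-1 and RNY3 lie below 3.

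Of the 9 genes, 8 had enough counts for edgeR's filterByExpr and were tested between EAF1-mutant and wild-type cells with 28025 genes in all. RNY3, with 1 to 6 counts per library, did not pass. Calls required an adjusted p below 0.01 together with a log2 fold change beyond 0.5 in either direction. RN7SK rose, RPPH1 and RNY1 fell, and the other 5 tested genes did not pass both limits. Among all tested genes, 9.36% were called lower and 11.0% higher, so that 2 and 1 of 8 are counts in which a single gene weighs much. The median log2 fold change of the 8 genes was -0.13, with 4 below 0, beside 0.01 for all tested genes. In 7 of the 8 the libraries of both groups did not overlap, which held for 57.3% of all tested genes. At an unadjusted p under 0.05, the background for such counts below, 27.8% of all tested genes lay below 0 and 28.5% above. Scaling by library totals in place of TMM moved the median of all tested genes to 0.13, and the table then gave 1840 lower and 4169 higher genes in place of 2624 and 3071. The values below are relative to the TMM scale.

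RN7SK (ENSG00000283293, chr6:52995621-52995948) encodes 7SK RNA, the scaffold of the particle that holds the elongation kinase P-TEFb inactive. Its level was 14303, 13649 and 13672 CPM in the wild-type libraries and 19955, 20558 and 20341 CPM in the EAF1-mutant libraries. The groups lay far apart, and libraries of one group differed little. The log2 fold change was 0.55 (standard error 0.03, adjusted p = 1.1e-12, edgeR's quasi-likelihood test with Benjamini-Hochberg adjustment), a 1.46-fold higher level. It stayed past both limits without any 1 of the 6 libraries, with values from 0.52 to 0.56, and in DESeq2.

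The RNAs of the 7SK particle's proteins and of P-TEFb were measured beside it. Of LARP7, MEPCE, HEXIM1, HEXIM2, CDK9, CCNT1 and CCNT2, 0 of 7 were called in either direction by edgeR's quasi-likelihood test or by DESeq2. With no adjustment, 4 were above 0 and 0 below at a p under 0.05, beside 28.5% and 27.8% of all tested genes. Their median log2 fold change was 0.09. CCNT1, a cyclin of P-TEFb and the most abundant, had 121 ± 3.28 CPM in the wild type and 130.3 ± 2.98 CPM in the EAF1-mutant line (SD, n = 3). MEPCE, which caps 7SK RNA, had the largest log2 fold change of them, 0.27 (standard error 0.04).

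RN7SK has many copies in the genome, and 82 of 299 annotated ones were tested. Of these, 6 were called higher and 0 lower by edgeR's quasi-likelihood test, with a median log2 fold change of 0.30. DESeq2 called 4 higher and 0 lower, and at an unadjusted p under 0.05 edgeR had 22 above 0 and 1 below, beside 28.5% and 27.8% of all tested genes. The calls stand beside 11.0% higher and 9.36% lower over the table. RN7SKP203, the copy with the most counts and 84.6% identical to RN7SK, had 653 ± 35.5 CPM in the wild type and 873 ± 13.1 CPM in the EAF1-mutant line (SD, n = 3), a log2 fold change of 0.42 at an adjusted p of 3.19e-09 (edgeR). RN7SKP176 rose from 7.41 ± 1.28 to 12 ± 2.18 CPM (log2 fold change 0.68). Whether reads of RN7SK itself were assigned to these copies was not tested. Copies held 9.01% of the summed CPM of the family in wild-type cells and 8.35% in EAF1-mutant cells, so the sum moved as RN7SK did, by 0.54 on the log2 scale.

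**Figure D2:**
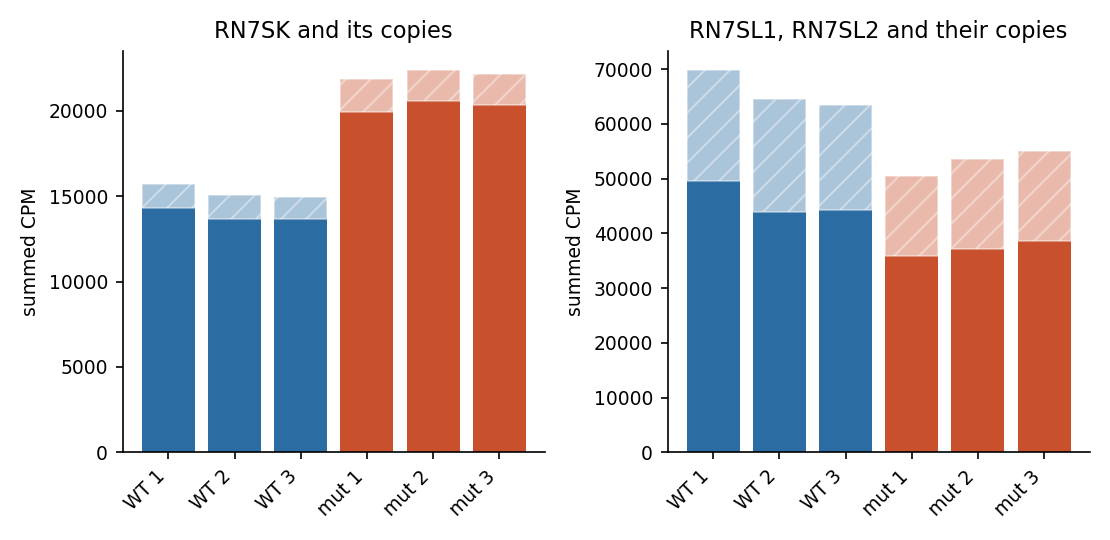
Summed CPM of RN7SK with its copies (left) and of RN7SL1 and RN7SL2 with their copies, RN7SL3 included (right), in each library; WT is wild type, mut is EAF1 mutant. Solid bars are the named genes and hatched bars the copies; the RN7SK sums are higher in every EAF1-mutant library and the RN7SL sums lower.

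As a measure of likeness, the log2 CPM of RN7SK was correlated over the 6 libraries with those of 11323 genes outside the lists with a mean of at least 10 CPM. The highest Pearson r, as a description over libraries that fall into 2 groups, were those of LINC02593 (r = 0.9998), IGF2R (0.9995) and KIF1A (0.9995), and 1562 genes had an r over 0.95. LINC02593 had 24.3 ± 1.87 CPM in the wild type and 62.2 ± 2.94 CPM in the EAF1-mutant line, IGF2R, a receptor that takes up insulin-like growth factor 2, 189 ± 4.21 and 269 ± 5.58, and KIF1A, a kinesin of axonal transport, 53 ± 2.77 and 171 ± 8.72 (SD, n = 3).

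RN7SL1 (ENSG00000276168, chr14:49586580-49586878) and RN7SL2 (ENSG00000274012, chr14:49862550-49862849) encode the RNA of the signal recognition particle (SRP), which directs nascent secretory and membrane proteins to the endoplasmic reticulum. RN7SL1 had 24121, 21327 and 20432 CPM in the wild-type libraries and 17784, 18265 and 17721 CPM in the EAF1-mutant libraries. RN7SL2 had 25436, 22506 and 23789 CPM in the former and 18047, 18962 and 20868 CPM in the latter. Neither gene's groups overlapped, and for RN7SL1 wild-type replicate 1 lay above the other wild-type libraries. The log2 fold changes were -0.29 (standard error 0.04, adjusted p = 4.51e-06) and -0.31 (standard error 0.05, adjusted p = 3.99e-06, edgeR's quasi-likelihood test for both), within the limit on the fold change, and -0.18 and -0.19 with library totals. The ratio of RN7SL1 to RN7SL2 was between 0.849 and 0.985 in every library.

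RN7SL3, a further SRP RNA gene that is 97.7% identical to RN7SL1, had 12247 ± 778 CPM in the wild type and 9755 ± 1281 CPM in the EAF1-mutant line (SD, n = 3) and a log2 fold change of -0.33. The most abundant pseudogene, RN7SL5P, had 5607 ± 794 and 4133 ± 170.3 CPM and a log2 fold change of -0.44, and RN7SL4P had one of -0.21. Of 199 tested members of the family besides RN7SL1 and RN7SL2, 5 were called lower and 4 higher by edgeR's quasi-likelihood test and 2 lower and 2 higher by DESeq2, with a median of -0.07. At an unadjusted p under 0.05 in edgeR, 20 lay below 0 and 11 above. Summed over the whole family, the level was 65963 ± 3429.8 CPM in the wild type and 53049 ± 2306 CPM in the EAF1-mutant line (SD, n = 3). The groups did not overlap (exact permutation test, two-sided, p = 0.1, the smallest that 3 against 3 libraries allow), and the log2 ratio was -0.31, or -0.20 with library totals.

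Among the SRP proteins and the subunits of the SRP receptor, 1 of 8 was called lower and 0 higher by edgeR's quasi-likelihood test and by DESeq2, with a median log2 fold change of -0.14. The unadjusted p was under 0.05 for 5 below 0 and 2 above. SRP54, the subunit that binds the signal sequence, fell from 73 ± 1.1 to 50.2 ± 0.942 CPM (SD, n = 3), by 0.54 on the log2 scale. SRP9, the most abundant, had 450.0 ± 8.09 and 347 ± 11 CPM and a log2 fold change of -0.38, and SRP14, with which it forms a dimer, had one of 0.19.

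RPPH1 (ENSG00000277209, chr14:20343075-20343407) encodes the catalytic RNA of RNase P, which cuts the 5′ leader from precursor tRNAs. It had 6654, 5622 and 6192 CPM in the wild-type libraries and 3838, 3960.1 and 4026 CPM in the EAF1-mutant libraries. Each wild-type library lay above each EAF1-mutant library, and the wild-type libraries were spread more widely. RPPH1 fell by 0.64 on the log2 scale (standard error 0.04, adjusted p = 1.93e-11, edgeR's quasi-likelihood test), and the call held without any 1 of the 6 libraries and in DESeq2.

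RMRP (ENSG00000277027, chr9:35657754-35658017) encodes the RNA of RNase MRP, a related ribonucleoprotein that acts in the maturation of ribosomal RNA and shares most of its proteins with RNase P. It had 3059.9, 2497 and 2257 CPM in the wild-type libraries and 2376, 2801 and 2789.5 CPM in the EAF1-mutant libraries. The groups overlapped, and wild-type replicate 1 was the highest of the 6. The log2 fold change was 0.03 (standard error 0.07, adjusted p = 0.775, edgeR's quasi-likelihood test), and its sign changed when single libraries were left out, to -0.08 without wild-type replicate 3 and to -0.01 without wild-type replicate 2, EAF1-mutant replicate 2 or EAF1-mutant replicate 3. The ratio of RMRP to RPPH1 was 0.46, 0.444 and 0.365 in wild-type and 0.619, 0.707 and 0.693 in EAF1-mutant libraries, so the share of RMRP in the pair was higher in each EAF1-mutant library (exact permutation test, two-sided, p = 0.1, the smallest possible).

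Of the 12 genes for proteins of RNase P and RNase MRP, 2 were called lower and 0 higher by edgeR's quasi-likelihood test and by DESeq2, with a median log2 fold change of -0.13. Without adjustment, 6 were below 0 and 3 above at a p under 0.05. RPP14 fell from 77 ± 2.6 to 39.3 ± 1.65 CPM (log2 fold change -0.97) and RPP38 from 20.1 ± 0.294 to 13.1 ± 0.312 CPM (-0.62), with SD and n = 3 in each group. NEPRO, the most abundant, had 86.5 ± 3.25 and 92 ± 0.91 CPM.

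BCYRN1 (ENSG00000236824, chr2:47335315-47335514) encodes BC200, an Alu-derived RNA best known from neurons, where it represses translation. It had 34, 38.1 and 33.7 CPM in the wild-type libraries and 44.6, 54.6 and 39.4 CPM in the EAF1-mutant libraries. All EAF1-mutant libraries were above all wild-type libraries, with EAF1-mutant replicate 2 the highest. The log2 fold change was 0.39 (standard error 0.08, adjusted p = 1.61e-04, edgeR's quasi-likelihood test), under the limit on the fold change. It was 0.25 without EAF1-mutant replicate 2, and 0.50 with library totals, where the gene was called. DESeq2 gave 0.38 with an adjusted p of 0.0352, past neither limit. Of 4 proteins that bind BC200 (SYNCRIP, PABPC1, SRP9 and SRP14), 0 were called by edgeR's quasi-likelihood test or by DESeq2. At an unadjusted p under 0.05, 3 were below 0 and 1 above, and the median was -0.24.

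VTRNA1-1 (ENSG00000199990, chr5:140711275-140711373) encodes an RNA of the vault particle. It had 11, 8 and 8 counts in the wild-type libraries and 16, 12 and 14 in the EAF1-mutant libraries, or 0.149 to 0.195 and 0.203 to 0.269 CPM. At this depth the log2 fold change of 0.44 had a standard error of 0.37 and an adjusted p of 0.339 (edgeR's quasi-likelihood test). VTRNA1-3, with more counts, had 2.17 ± 0.471 CPM in the wild type and 2.44 ± 0.186 CPM in the EAF1-mutant line (SD, n = 3). Among the vault proteins MVP, TEP1 and PARP4, 0 of 3 were called by edgeR's quasi-likelihood test or DESeq2. The unadjusted p was under 0.05 for 1, above 0, and 0 below, and the median was 0.06. PARP4, the most abundant, had 50.1 ± 1.29 and 47.4 ± 1.94 CPM.

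RNY1 (ENSG00000201098, chr7:148987136-148987248) and RNY3 (ENSG00000202354, chr7:148983755-148983856) encode Y RNAs, which are bound by the Ro60 protein and by La at their 3′ ends. RNY1 had 63, 66 and 54 counts in the wild-type libraries and 48, 43 and 48 in the EAF1-mutant libraries, or 1.11, 1.31 and 1.01 against 0.806, 0.773 and 0.695 CPM. The groups did not overlap, but the counts are few. RNY1 fell by 0.59 on the log2 scale (standard error 0.18, adjusted p = 0.00817, edgeR's quasi-likelihood test). The call did not hold in DESeq2 (-0.60, adjusted p = 0.0594), with library totals (-0.48, edgeR, adjusted p = 0.0288), or in 5 of the 6 fits that left out 1 library, with adjusted p (edgeR) from 0.0134 to 0.0449. It held without wild-type replicate 3 (adjusted p = 0.00617, edgeR), and over these 6 fits the log2 fold change ran from -0.69 to -0.50. RNY3 had 5, 6 and 4 counts in wild-type and 4, 1 and 1 in EAF1-mutant libraries, too few for a comparison.

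RO60, the gene of the Ro60 protein, fell from 270.3 ± 13.9 to 180.1 ± 8.93 CPM (SD, n = 3), by 0.59 on the log2 scale (adjusted p = 4.26e-11, edgeR's quasi-likelihood test), and SSB, the gene of La, had 247 ± 7.08 and 202 ± 5.91 CPM and a log2 fold change of -0.29. Of 158 tested copies of Y RNA genes, 7 were called lower and 0 higher by edgeR's quasi-likelihood test, with a median of -0.14. DESeq2 called 3 lower and 0 higher, and edgeR's unadjusted p was under 0.05 for 22 below 0 and 8 above. The largest of these changes at 1 CPM or more were in records named Y_RNA on chromosomes 3 and 1, with log2 fold changes of -0.72 and -0.62.

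Some of the genes lay in stretches of chromosome whose genes were lower as a whole. For each gene, the median log2 fold change of the other tested genes that start within 1 Mb was set beside its own. RPPH1, at -0.64, lay among 32 genes with a median of -0.61, of which 21 were called lower by edgeR's quasi-likelihood test. RNY1, at -0.59, lay among 29 with a median of -0.53, of which 19 were called lower, and RNY3 lies beside it. RN7SL1 and RN7SL2, at -0.29 and -0.31, lay among 32 and 38 genes with medians of -0.50 and -0.57, and their windows overlap. Over the whole of chromosome 14, which holds RPPH1 and both RN7SL genes, the median of 907 tested genes was -0.17.

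RN7SK, at 0.55, lay among 18 genes with a median of -0.05, of which 1 was called lower by edgeR's quasi-likelihood test. The surroundings of BCYRN1 (0.39), with 27 genes, and of RMRP (0.03), with 49, both had medians of 0.07, and those of VTRNA1-1 (0.44), with 69, had one of 0.26. The part of these surroundings in the levels of the genes was not tested, and the number of copies of each region in the EAF1-mutant line was not analysed here.

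**Figure D3:**
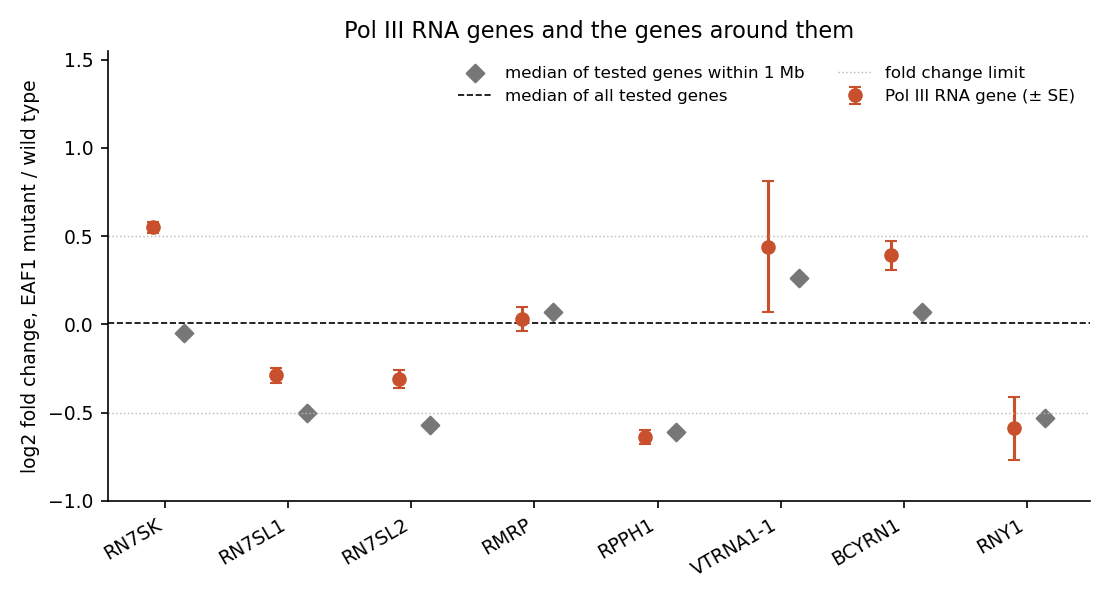
Log2 fold change of each tested Pol III RNA gene with its standard error (circles) and the median of the tested genes that start within 1 Mb of it (diamonds), EAF1 mutant over wild type. The dashed line is the median of all tested genes (0.01) and dotted lines are the limits at 0.5 and -0.5; RPPH1 and RNY1 lie at the level of their surroundings, and RN7SK lies above its own.

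The genes nearest to each were also measured. PARP2, a DNA repair gene that starts 208 bases from RPPH1 on the opposite strand, fell from 46.6 ± 2.58 to 31.5 ± 0.724 CPM (log2 fold change -0.56). PDIA4, the nearest tested protein-coding gene to RNY1 and RNY3, fell from 291 ± 5.24 to 159 ± 3.24 CPM (-0.87). RPS29, a ribosomal protein gene with RN7SL1 in an intron on the opposite strand, fell from 1333 ± 231 to 740.0 ± 72.1 CPM (-0.85), and NEMF, the nearest to RN7SL2, fell from 117 ± 3.64 to 66 ± 1.78 CPM (-0.82). A long noncoding RNA gene (ENSG00000282885) with an exon over RN7SL2 on the same strand had 1.07 ± 0.108 and 0.806 ± 0.159 CPM (-0.41). GSTA4, a glutathione transferase gene 317 bases from RN7SK on the opposite strand, fell from 21.7 ± 2.15 to 13.2 ± 0.67 CPM (-0.71), against the direction of RN7SK. CCDC107, 273 bases from RMRP, had 10.7 ± 0.73 and 9.94 ± 0.261 CPM (-0.11), ZMAT2, near VTRNA1-1, had 63.5 ± 1.5 and 75.6 ± 0.389 CPM (0.25), and LRR1, on the other side of RN7SL1, fell from 33.2 ± 0.617 to 21.3 ± 0.408 CPM (-0.64). EPCAM, an epithelial adhesion gene 9644 bases from BCYRN1, rose from 0.243 ± 0.017 to 1.46 ± 0.149 CPM (2.57). EPCAM-DT, the long noncoding RNA gene with BCYRN1 in an intron on the opposite strand, had 0.139 ± 0.0458 and 0.266 ± 0.0832 CPM. All of these errors are SD with n = 3.

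The RNAs of the Pol III transcription apparatus were compared in the same fit. Of 11 Pol III subunit genes, 2 were called lower and 0 higher by edgeR's quasi-likelihood test, with a median log2 fold change of -0.22, and DESeq2 called 3 lower. The p before adjustment was under 0.05 for 7 below 0 and 0 above, beside 27.8% and 28.5% of all tested genes. POLR3F fell from 26.4 ± 0.649 to 16.8 ± 0.93 CPM (log2 fold change -0.65) and POLR3G, a subunit abundant in embryonic stem cells, from 40.8 ± 1.62 to 27.9 ± 1.13 CPM (-0.55; SD, n = 3).

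Among 10 factors that act at promoters outside the transcribed sequence (the SNAPc subunits, TBP, BRF2, BDP1, POU2F1 and ZNF143), 0 were called lower and 1 higher by edgeR's quasi-likelihood test and by DESeq2, with a median of 0.00. At an unadjusted p under 0.05, 4 were below 0 and 2 above. SNAPC4, the largest SNAPc subunit, rose from 31.8 ± 1.28 to 49.8 ± 0.46 CPM (0.65; SD, n = 3), and BDP1, the most abundant, had a log2 fold change of -0.09. Among 9 factors of promoters inside the transcribed sequence (TFIIIA, TFIIIC subunits, BRF1 and the repressor MAF1), 1 was called lower and 0 higher by both tools, with a median of 0.00. At an unadjusted p under 0.05, 4 were below 0 and 3 above. GTF3A, the gene of TFIIIA, which is specific to 5S rRNA genes, fell from 108 ± 2.65 to 59.2 ± 2.13 CPM (-0.86; SD, n = 3), and GTF3C1, the most abundant, had a log2 fold change of -0.19.

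The called protein genes were set beside their own surroundings in the same way, a step added after their values were seen. The genes within 1 Mb of SRP54, RPP14, RPP38, RO60 and POLR3F had medians of -0.55, -0.81, -0.54, -0.44 and -0.53, and those around SNAPC4 one of 0.44. For GTF3A and POLR3G the surroundings had medians of 0.01 and -0.04, so that these genes lay well below theirs.

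Of 28 other Pol III RNA genes found in the table, 8 passed the filter on low counts. RN7SL3 was the most abundant, and 17 had no counts in any library, 16 of them 5S rRNA genes. In the U6 snRNA genes, which Pol III transcribes from an upstream promoter, the values went in both directions: RNU6-8 fell from 1.68 ± 0.0515 to 1.19 ± 0.0956 CPM (log2 fold change -0.51) and RNU6-9 rose from 1.02 ± 0.0784 to 1.48 ± 0.0774 CPM (0.55; SD, n = 3). These calls by edgeR's quasi-likelihood test were not made by DESeq2, which called 0 of the 8. The U6 genes share near-identical sequence, so their counts are uncertain. The genes around RNU6-8 and RNU6-9 had medians of -0.50 and 0.21. The median of the 8 was -0.13. Over all 438 tested copies of Pol III RNA genes, 12 were called lower and 10 higher by edgeR's quasi-likelihood test and 5 lower and 6 higher by DESeq2, with a median of -0.04. Outside the RN7SK and Y RNA copies, the largest changes at 1 CPM or more were those of RN7SL209P (1.01), RN7SL832P (0.70) and RN7SL535P (-0.61).

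The Pol II snRNA genes, which make the U1, U2, U4, U5, U7, U11, U12 and U4atac RNAs, were lower as a list. Of 34 tested, 34 had a log2 fold change below 0, 21 were called lower and 0 higher by edgeR's quasi-likelihood test, with a median of -1.12. DESeq2 called 21 lower and 0 higher. The sum of the list moved less than its median: it was 2749, 2745 and 2239 CPM in the wild-type libraries and 2060.3, 2126 and 2214 CPM in the EAF1-mutant libraries, a log2 ratio of -0.27 (exact permutation test, two-sided, p = 0.1, the smallest possible). The largest falls at 1 CPM or more were those of RNVU1-31, from 5.17 ± 0.484 to 0.126 ± 0.0872 CPM (log2 fold change -5.41), RNVU1-15 (-1.99) and RNVU1-14 (-1.97; SD, n = 3). RNU1-1, the most abundant, had 831 ± 92.8 and 687 ± 21.3 CPM and a log2 fold change of -0.27. Several of the U1 genes and their variants are near-identical, so reads may be shared between them. None of the 8 tested Pol III genes had a log2 fold change as low as the snRNA median, and the lowest, that of RPPH1, was -0.64. Whether the groups of genes differ was not tested.

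**Figure D4:**
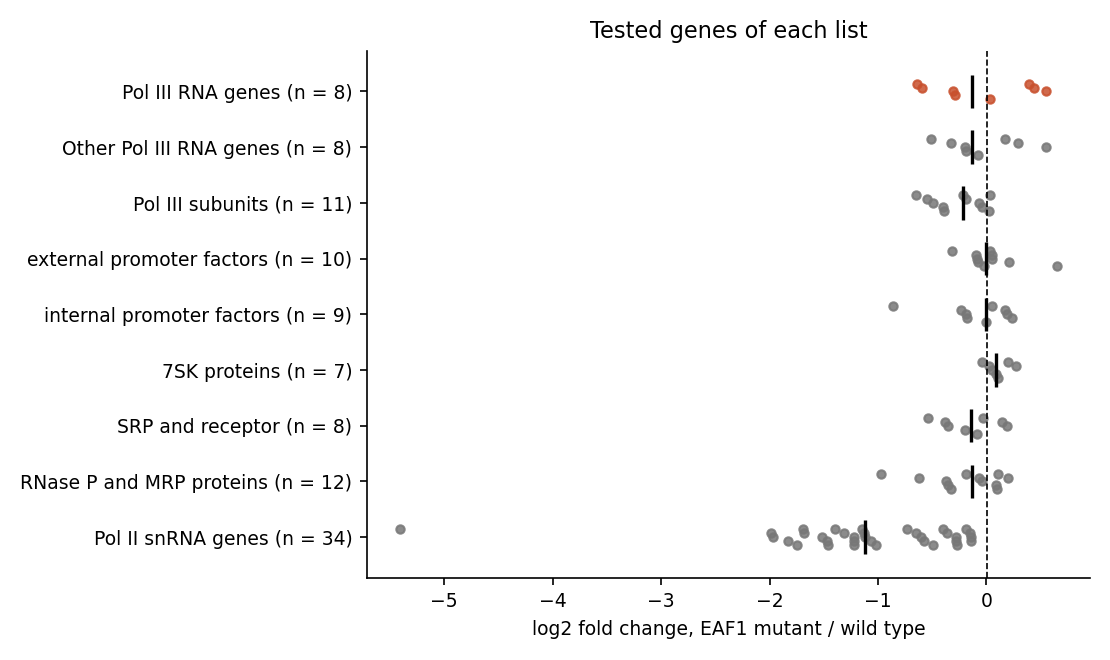
Log2 fold change (EAF1 mutant over wild type) of each tested gene in 9 lists; every point is a gene, short bars are medians of the lists and the dashed line is the median of all tested genes (0.01). The Pol II snRNA genes all lie below 0 with a median of -1.12, while the Pol III RNA genes lie on both sides of 0 between -0.64 and 0.55.

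Summed over the 9 genes, the level was 73609, 65641 and 66377 CPM in the wild-type libraries and 62046, 64601 and 65785 CPM in the EAF1-mutant libraries. The groups overlapped, with wild-type replicate 1 above all others (exact permutation test, two-sided, p = 0.2, with 0.1 the smallest possible). Without the RN7SL genes, the sum was 22672 ± 1208 CPM in the wild type and 26929 ± 624 CPM in the EAF1-mutant line (SD, n = 3), a log2 ratio of 0.25, and that of RN7SL1 and RN7SL2 was 45871 ± 3199 and 37215 ± 1379 CPM, one of -0.30. RN7SK was thus 0.593, 0.64 and 0.669 of RN7SL1 in the wild-type libraries and 1.12, 1.13 and 1.15 of it in the EAF1-mutant libraries. The 9 genes took 6.31% to 7.04% of all counts in wild-type and 6.46% to 6.82% in EAF1-mutant libraries.

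Other short RNAs and RNAs that bear on the depletion step were measured beside them. The short RNA genes outside these families (snoRNA, scaRNA, snRNA and miscellaneous RNA) summed to 14542, 14247 and 12398 CPM in the wild-type libraries and 9805, 10683 and 10043 CPM in the EAF1-mutant libraries, a log2 ratio of -0.43. Within them the 339 tested snoRNA genes had a median log2 fold change of -0.17, with 57 called lower and 12 higher by edgeR's quasi-likelihood test, and the 247 tested snRNA genes one of -0.13, with 35 lower and 5 higher, beside 9.36% and 11.0% of all tested genes. The 22 scaRNA genes, which guide the modification of snRNAs, had a median of -0.02, with 0 called. Annotated nuclear rRNA genes kept 72.6, 135 and 136 CPM in the wild-type libraries and 63.6, 113 and 136 CPM in the EAF1-mutant libraries, with the lowest value in replicate 1 of each group. Their part in the levels of the Pol III RNAs was not tested.

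The labelled cell type was checked with marker genes. All 6 markers of HEK293T cells (VIM, NES, NEFM, NEFL, PAX2 and ENO2) were tested. They summed to 503, 513 and 531 CPM in wild-type and 305, 304 and 309.6 CPM in EAF1-mutant libraries. VIM, the most abundant, fell from 380.5 ± 8.97 to 199 ± 4 CPM (SD, n = 3), and NEFM and NES fell by 1.31 and 0.64 on the log2 scale, while ENO2 rose by 1.94. Of 6 colon epithelium markers 3 were tested: VIL1, the most abundant at 26.4 ± 1.58 and 29.8 ± 0.265 CPM, CDX2 and EPCAM, while CDH17 and LGALS4 had 1 to 13 counts per library and CDX1 a single count in all. Of the blood markers, PTPRC had 1 to 3 counts per library, and CD3E and HBB had a single count each over all libraries. Of the fibroblast markers, COL1A1 had 2.85 ± 0.584 and 4.16 ± 0.152 CPM (log2 fold change 0.54), COL3A1 had 2.1 ± 0.229 and 0.469 ± 0.174 CPM (-2.18), and DCN had 1 to 4 counts per library. The part of these marker differences in the Pol III RNA levels was not tested.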

How the data were processed

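Total RNA depleted of ribosomal RNA was sequenced in paired-end, stranded libraries. The authors trimmed the reads, aligned them to GRCh38 using HISAT2 and obtained counts for Ensembl genes using Rsubread, which were deposited without normalization. The sources used here do not give how strand, reads with several matches and overlapping genes were handled. Of 58395 genes, 57754 matched GENCODE v44, which gave symbols, positions and transcript sequences. Groups were taken from the sample labels. From the deposited counts, edgeR 4.0.16 (R 4.3.3) was used for scaling (TMM), filtering (filterByExpr), CPM and quasi-likelihood tests, adjusted by Benjamini-Hochberg over 28025 genes. A prior count of 2 was used for the log2 CPM of the correlations only, not for the tests or the CPM. Standard errors were derived from the quasi-likelihood test, as the size of the log2 fold change divided by the square root of its F statistic. The limits on adjusted p and fold change are those of the study's methods. DESeq2 1.42.0 was an alternative, as were other scalings, filters and thresholds, a replicate block and each library left out. The fit was tested on simulated counts. Genes named in the text were every gene of the group, their nearest or overlapping counted neighbors, and in each list the most abundant gene and up to 3 called genes per direction with the largest changes at 1 CPM or more. The genes and lists were chosen with earlier results of these data known. Some genes and sequences are not reported here.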

Additional observations from a re-analysis of the deposited data

How the results depend on the processing

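RN7SK and RPPH1 kept their call in all 14 alternative fits, those without 1 library included, and the second records were removed in 1 of these, chosen after seeing the data. RN7SL1 and RN7SL2 stayed below 0 in all 14 and were called in none. The count of genes of the group called lower was 2. It was 1 with DESeq2, with library totals and with a filter of 1 CPM in 3 libraries. RNY1 did not pass that filter, and its 54 counts in wild-type replicate 3 were below 1 CPM before the TMM factor. The count called lower ran from 1 to 2 with 1 library left out. It was 4 at an adjusted p under 0.05 with no fold limit, and 0 at a log2 fold change over 1. The count called higher was 1, 2 with library totals, 1 throughout with 1 library left out, 2 at an adjusted p under 0.05 and 0 at a log2 fold change over 1. At the main thresholds only RNY1 was lost and, at library totals, BCYRN1 gained; the cause was not tested. RMRP ran from -0.08 to 0.15 when 1 library was left out. The whole table had 7170 lower and 7250 higher genes under the first of these thresholds and 698 and 1452 under the last. The log2 ratio of the summed CPM, -0.10, was 0.02 with library totals, 0.25 without the RN7SL genes, and -0.13 to -0.04 with 1 library left out. Over the tested genes, deviations from the group means correlated by -0.00537, -0.0166 and 0.00974 between same-numbered libraries. Over all pairs of wild-type and EAF1-mutant libraries the correlations lay between -0.0301 and 0.0348. Single kinds of RNA could still share an order of replicates, as the nuclear rRNA genes did with their lowest value in replicate 1 of each group. With a replicate block 2 genes of the group were lower and 1 higher, as were 2631 and 3055 over the table. Precision is limited by depth for RNY1, VTRNA1-1 and RNY3, with at most 66 counts per library. The counts of the RN7SL genes, RN7SK and BCYRN1 may be shared with copies, which was not tested.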
